A study of Mus musculus with 2 samples.

Results

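The Peg3 and Snrpn imprinted domains of mouse chromosome 7 are described here through 9 genes, namely Peg3, Usp29 and Zim1 of the first domain and Snrpn, Ndn, Magel2, Mkrn3, Peg12 and Ube3a of the second. They were chosen by name out of 20807 autosomal protein-coding genes, and each was followed from 5 kb upstream of its annotated start to its end. These windows held 465 of the 1756096 autosomal CpG cytosines that were measured. The samples were XX and XO Xmas mESCs, female mouse embryonic stem cells of C57/Bl6 strain with a GFP reporter on 1 X chromosome and an mCherry reporter on the other, both driven by the Hprt promoter. The XX cells carried both X chromosomes, and the XO cells had lost 1 of them and were separated by FACS. Both came from 2i/LIF cultures kept by a modified suspension method. The sample labels give 7 passages for both, and the paper states a higher number. Methylation was read by RRBS, in which restriction fragments rich in CpGs are sequenced after bisulfite treatment, with 1 library per karyotype. There are therefore no replicates, and no difference below has a replicate error or a test.

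Imprinted genes are expressed from 1 parental chromosome. The promoters of Peg3 and Snrpn acquire methylation in the oocyte, keep it on the maternal chromosome after fertilisation and control other genes of their domain, so they are called germline control promoters. The promoters of Ndn, Magel2, Mkrn3 and Peg12 are secondary promoters, where parental methylation is placed later in development under the influence of the Snrpn control region. Ube3a is silenced on the paternal chromosome of neurons by an antisense transcript. Parental alleles were not distinguished in these data, so each value averages both.

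Methylation is the percentage of reads over a cytosine that were methylated. Means over cytosines are given with the SD over those cytosines, which describes the spread along the DNA and is not replicate error, and n counts cytosines. Differences are XX minus XO in percentage points. Coverage is unknown, so no interval was computed, and a cytosine listed at 0% may rest on few reads. Neighbouring cytosines can share reads. Of 354 pairs of neighbours on the same strand in these windows, 50.8% had the same XX value and 52.3% the same XO value. Over chromosome 7 the shares were similar. They include pairs with 0% at both cytosines, which can match without shared reads, so they do not measure how often reads were shared. Because reads can be shared, cytosines no more than 100 bp apart were joined into clusters, and clusters were also read by strand. At the 103 CpGs measured on both strands, the strands differed by a median of 2.63 points in XX and 2.26 points in XO cells, with an SD of 11.5 and 14.7 points. Over the autosomes the mean was 17.6% in XX against 25.7% in XO. The promoters of Pou5f1, Zfp42, Sall4 and Esrrb, genes of pluripotent cells, had means of 2.15% to 11.7% in XX and 6.47% to 19.6% in XO cells. No cytosine was listed at the Nanog promoter, and promoter methylation alone does not identify a cell type.

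The stretches that carry the main contrasts are shown in the 5′ to 3′ direction from the RefSeq genome sequence of GRCm38.p6, with capitals for each CpG measured on at least 1 strand. The first group is from the germline control promoters and holds part of the CpGs that each promoter mean rests on.
Peg3 exon 1, chr7:6730275-6730304, reverse strand: tgcCGaccctggtCGgggtgtgtgCGtaga
Snrpn upstream of the start, chr7:60005112-60005242, reverse strand: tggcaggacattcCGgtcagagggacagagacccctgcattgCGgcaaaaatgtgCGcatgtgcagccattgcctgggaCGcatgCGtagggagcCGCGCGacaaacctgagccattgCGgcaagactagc
Snrpn intron after the start, chr7:60004575-60004660, reverse strand: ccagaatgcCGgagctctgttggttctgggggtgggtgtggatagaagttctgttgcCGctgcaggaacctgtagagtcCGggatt

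The next group is from other promoters and exons. It sets stretches of Magel2 and Ube3a with little methylation beside neighbouring stretches that were methylated in XO cells, and adds coding sequence of Zim1, Ndn and Peg12.
Zim1 coding exon, chr7:6677388-6677595, reverse strand: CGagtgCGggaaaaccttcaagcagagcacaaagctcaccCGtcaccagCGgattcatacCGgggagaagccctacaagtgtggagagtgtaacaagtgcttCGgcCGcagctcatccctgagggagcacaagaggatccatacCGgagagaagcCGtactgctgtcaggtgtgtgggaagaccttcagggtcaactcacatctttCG
Ndn coding sequence, chr7:62348490-62348682, forward strand: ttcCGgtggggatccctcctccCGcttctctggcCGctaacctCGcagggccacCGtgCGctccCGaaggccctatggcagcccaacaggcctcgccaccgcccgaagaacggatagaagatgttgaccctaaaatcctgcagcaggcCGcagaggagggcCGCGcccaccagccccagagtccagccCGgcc
Magel2 beginning of the coding sequence, chr7:62377350-62377520, forward strand: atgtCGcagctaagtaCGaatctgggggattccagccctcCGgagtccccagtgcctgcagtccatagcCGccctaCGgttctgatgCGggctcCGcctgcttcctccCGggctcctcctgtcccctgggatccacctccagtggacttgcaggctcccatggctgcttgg
Magel2 further into the coding sequence, chr7:62377951-62378132, forward strand: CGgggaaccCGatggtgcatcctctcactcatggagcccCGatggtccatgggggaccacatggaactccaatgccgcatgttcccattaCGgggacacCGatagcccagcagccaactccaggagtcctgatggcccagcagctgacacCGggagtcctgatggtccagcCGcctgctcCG
Ube3a before the first annotated start, chr7:59228720-59228749, forward strand: ccctcgccCGgcagggttggCGCGCGctgc
Ube3a after the inner start, chr7:59229363-59229432, forward strand: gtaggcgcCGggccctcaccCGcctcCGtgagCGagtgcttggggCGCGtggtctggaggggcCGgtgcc
Peg12 coding sequence, chr7:62463517-62463705, reverse strand: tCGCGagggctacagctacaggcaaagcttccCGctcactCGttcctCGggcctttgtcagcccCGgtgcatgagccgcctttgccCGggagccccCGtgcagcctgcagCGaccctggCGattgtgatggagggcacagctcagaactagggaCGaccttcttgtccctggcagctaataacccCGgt

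Over whole gene windows, XX methylation was lower than XO methylation for 7 of 9 genes and higher for 2, Ndn and Peg12. Both of the latter directions depended on the weighting, since Ndn differed by -3.21 points for medians over cytosines and Peg12 by -1.57 points on the reverse strand. Of all autosomal protein-coding gene windows 88.5% were lower in XX cells, so a majority of lower windows is also the background. The median difference of the 9 windows was -11.1 points, against -5.80 points for 17198 autosomal gene windows. The 9 windows also had more methylation in XO cells, with a median of 35.9% against 21.1%. Over their 465 cytosines the XX mean was 65.9% of the XO mean, against 68.4% over all autosomal cytosines. Only Zim1 was lower by at least 20 points, which makes 1 of 9 against 9.72% of all windows, and Ube3a lay just inside that limit with -19.9 points. With each cluster counted once the call passed from one to the other, with -17.7 points at Zim1 and -23.7 points at Ube3a. None was higher by 20 points, against 0.105% of all windows. Of the 465 cytosines 252 were lower in XX cells, 115 of them by at least 20 points, and 10 were higher by at least 20 points. Over all autosomal cytosines the shares were 53.5%, 22.4% and 3.69%.

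**Figure D1:**
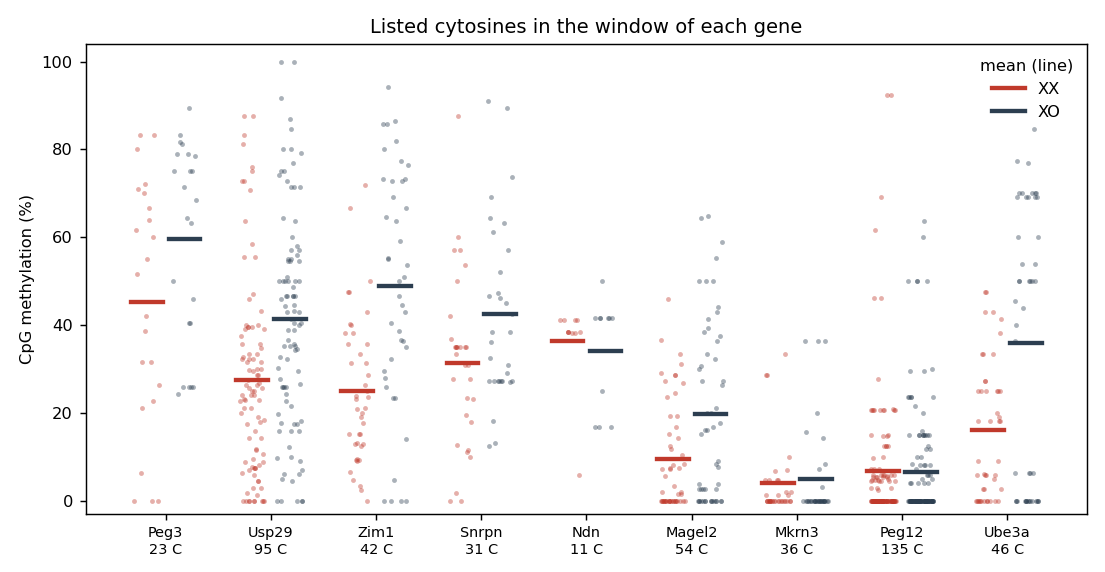
Methylation (%) of every listed cytosine (points) in the window of each of the 9 genes, in XX and XO cells, with the mean as a line and the number of cytosines (C) under each name. The XX mean lies under the XO mean at 7 genes, by most at Zim1 (25.01% in XX against 48.8% in XO), and Mkrn3 and Peg12 have most cytosines near 0%.

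In the Peg3 domain all windows were intermediately methylated and lower in XX cells. The window of Peg3, a zinc finger protein gene, had 45.2% ± 27.9 in XX against 59.5% ± 22.6 in XO cells (SD, n = 23). Usp29, a ubiquitin-specific protease gene read from the opposite strand, had 27.6% ± 22.3 in XX against 41.3% ± 24.6 in XO cells (SD, n = 95). Zim1, a zinc finger gene expressed from the maternal chromosome, had 25.01% ± 16.7 in XX against 48.8% ± 27.0 in XO cells (SD, n = 42). The XX mean was 51.3% of the XO mean at Zim1, 66.8% at Usp29 and 75.8% at Peg3.

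In the Snrpn domain the windows were less alike. Snrpn, which encodes a protein of the splicing machinery, had 31.3% ± 19.4 in XX against 42.4% ± 20.5 in XO cells (SD, n = 31). Ndn, the gene of the MAGE family protein necdin, had 36.4% ± 10.2 in XX against 34.1% ± 12.6 in XO cells (SD, n = 11). Magel2, another MAGE family gene, had 9.54% ± 12.2 in XX against 19.8% ± 20.1 in XO cells (SD, n = 54). These 3 genes thus ran from -11.1 points at Snrpn to 2.35 points at Ndn. Mkrn3, which encodes a makorin zinc finger protein, had 3.90% ± 8.43 in XX against 4.93% ± 10.8 in XO cells (SD, n = 36). Peg12, of the Frat gene family, had 6.76% ± 15.3 in XX against 6.47% ± 12.7 in XO cells (SD, n = 135). Ube3a, the gene of an E3 ubiquitin ligase, had 16.0% ± 15.3 in XX against 35.9% ± 31.0 in XO cells (SD, n = 46). Mkrn3 and Peg12 were low in both libraries, and Ube3a was lower in XX cells by more than any other window of its domain.

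As promoters served the 1 kb on both sides of the annotated start with the most CpGs in the genome sequence. Of the 9 genes 8 had at least 3 cytosines there, and between 4.30% and 53.3% of their CpG cytosines in these 8 were measured. XX methylation was lower at 6 promoters and higher at 2, and 0 of 8 were lower by at least 20 points. Peg3 and Usp29, both among the 6, rest on the same cytosines, so this measurement is counted for both genes. Of all autosomal protein-coding promoters 66.6% were lower in XX cells, 4.52% lower by at least 20 points and 0.372% higher by as much. Among promoters with 15% to 50% methylation over both libraries, 73.6% were lower and 14.4% lower by at least 20 points. The median difference over Zim1, Magel2, Mkrn3, Peg12 and Ube3a, the promoters with values that are neither a germline control nor shared with one, was -1.03 points. It is the value of Mkrn3, where methylation was 3.90% in XX against 4.93% in XO cells. Peg12 was also low, with 6.81% against 6.67%. The differences ran from -19.6 points at Ube3a to 4.84 points at Zim1.

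The germline control promoter of Peg3 (GRCm38 chromosome 7, 6729419 to 6731419) had 14.6% ± 14.5 in XX against 31.9% ± 8.84 in XO cells (SD, n = 8). These 8 cytosines of 5 CpGs lie in an untranslated exon of Peg3, 6730262 to 6730328. The start of Usp29 is 159 bp away on the other strand, so both genes rest on the same 8 cytosines. The strands gave different pictures. On the forward strand the XX values were 0%, 6.38%, 0% and 0%, and the XO values 40.5%, 24.3%, 40.5% and 45.9%, with no overlap. On the reverse strand the XX values were 31.6%, 21.1%, 26.3% and 31.6%, and the XO value was 25.9% at each of the 4 cytosines. The difference was -36.2 points forward and 1.71 points reverse. The lower mean at Peg3 therefore came from 1 strand of 1 cluster, and the part of read number in this was not tested.

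The germline control promoter of Snrpn (60004111 to 60006111) had 31.0% ± 15.5 in XX against 37.8% ± 18.8 in XO cells (SD, n = 21). Of these cytosines, on 18 CpGs, 10 were lower and 10 higher in XX cells. The difference was -6.81 points over cytosines, -16.0 points with each cluster counted once and 5.83 points for medians over cytosines, so its direction was not stable. The cluster across the start, 60005043 to 60005229, had 37.0% ± 10.9 in XX against 39.1% ± 20.1 in XO cells (SD, n = 16). On its forward strand 8 of 8 cytosines were higher in XX cells, with 35.0% at 6 of them, and the XO value was 27.3% at 7. Its reverse strand had 38.0% in XX against 52.0% in XO, and 5 of 8 cytosines were lower in XX cells. The widest gap was at 60005093, with 17.9% for XX against 73.7% for XO. In the intron, the cluster 60004580 to 60004651 had 7.64% ± 9.45 in XX against 29.2% ± 12.5 in XO cells (SD, n = 4), and the single cytosine at 60004900 read 27.8% in XX and 52.2% in XO cells. The printed upstream stretch thus differed by 3.29 points and the printed intron stretch by -21.5 points. RefSeq places 3 further starts of Snrpn upstream, and no cytosine was listed within 1 kb of any of them.

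**Figure D2:**
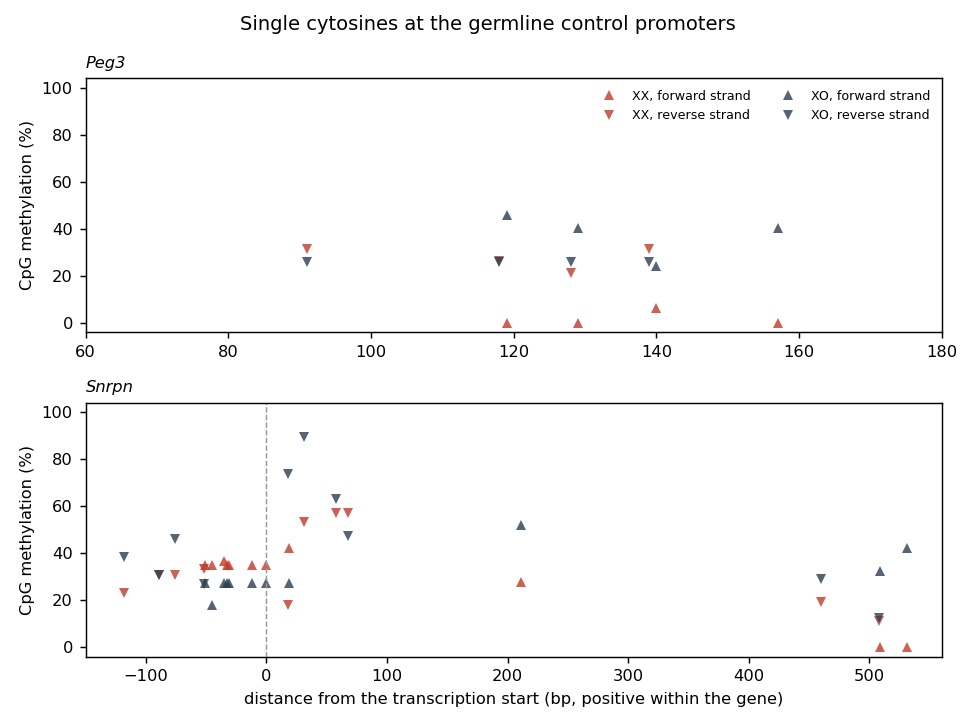
Methylation (%) of single cytosines in XX and XO cells against the distance (bp) from the start of Peg3 (top) and Snrpn (bottom), with triangles pointing up for the forward and down for the reverse strand. At Peg3 the forward XX values, at most 6.38%, lie under all others, and at Snrpn the libraries overlap around the start (dashed line) while XX is lower at each cytosine of the intron.

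Both control promoters were set beside the promoter windows of 14 other genes listed for oocyte methylation, of which 13 had at least 3 cytosines. Each window lay at the annotated start with the most CpGs. Whether it covered the stretch methylated in the oocyte was not tested, so the counts and ranks below may include windows that did not. XX methylation was lower at 13 of 13, with differences from -40.7 points at Kcnq1ot1 to -0.952 points at Nnat and a median of -9.21 points, where 66.6% of all promoters and 73.6% of those with 15% to 50% methylation were lower. The difference was wider than that of Peg3 at 4 of the 13 and wider than that of Snrpn at 10. With each cluster counted once, a weighting chosen after seeing the data, these counts were 5 and 5. The XX mean was 45.8% of the XO mean at Peg3 and 82.0% at Snrpn. Among the others it was 21.8% to 96.7%, with a median of 56.1%. The XX mean of Snrpn over cytosines was above that of each of the 13, which ran from 4.13% to 27.6%, but with each cluster counted once it was 24.2% and above 10 of the 13. None of these differences was tested.

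**Figure D3:**
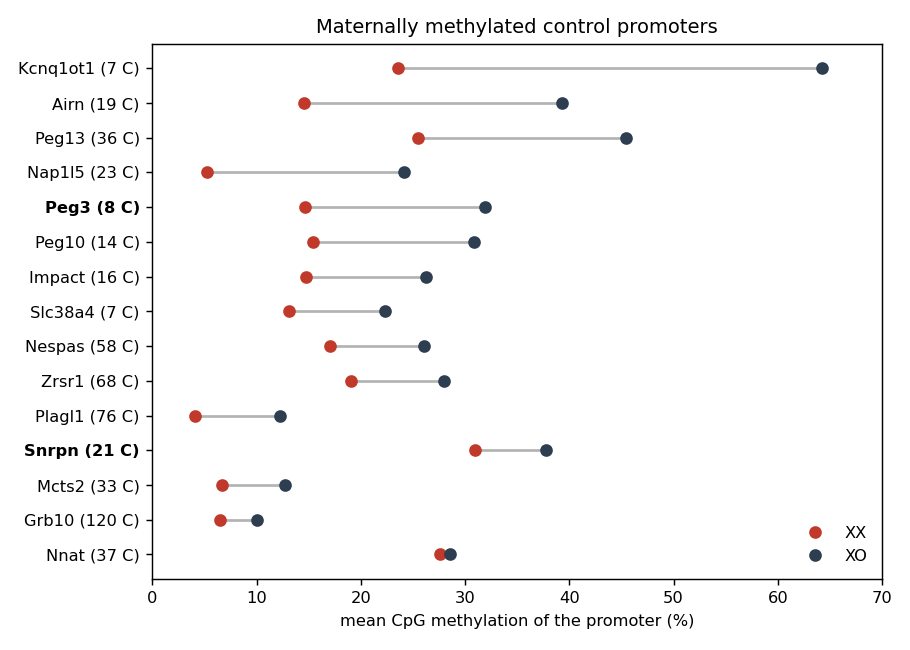
Mean methylation (%) in XX and XO cells of promoter windows of genes listed for oocyte methylation, ordered by the difference of the means over cytosines. The number of cytosines (C) stands beside each name. Peg3 (14.6% in XX against 31.9% in XO) stands in the upper part and Snrpn (31.0% in XX against 37.8% in XO) in the lower part; with each cluster counted once Snrpn moves up, to a difference of -16.0 points.

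The control promoters were also compared by sequence. TGCCGC, searched on both strands, is the core that the zinc finger protein ZFP57 binds when methylated, and ZFP57 protects imprints in the early embryo. It occurred 10 times in the Snrpn and 6 times in the Peg3 promoter. Of all 20807 autosomal protein-coding promoters 0.0336% held at least 10 copies, 0.582% at least 6 and 46.8% at least 1. The promoter windows of the 14 other genes listed for oocyte methylation held 2 to 12. The promoters of Zim1, Mkrn3 and Ube3a held 1, 3 and 2, and those of Ndn, Magel2 and Peg12 held 0. Both copies in the Snrpn upstream stretch read gCGgca on the printed strand. At Snrpn the copy in the intron was read at 0% in XX against 32.5% in XO cells on the forward strand, and at 11.1% against 12.5% on the reverse strand. Near the start, copies were read at 35.0% against 27.3% (60005123) and at 30.8% in both (60005200). No copy at Peg3 held a measured cytosine. GCCATNTT, the core bound by YY1 and also searched on both strands, occurred 2 times at Peg3 and 1 time at Snrpn, and 29.3% of all promoters held it. A match describes the letters and does not show binding.

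Among the other promoters the widest difference was at Ube3a (59228283 to 59230283), with 15.3% ± 15.1 in XX against 34.8% ± 31.0 in XO cells (SD, n = 44). This mean joined unlike clusters. The first, 59228728 to 59228927, over the first annotated start, had 26.9% ± 14.0 in XX against 65.3% ± 10.5 in XO cells (SD, n = 18). Its XO values ran from 40.0% to 84.6% and its XX values from 0% to 47.6%. The difference was -45.6 points on the forward and -32.7 on the reverse strand. The second, 59229093 to 59229149, read on the reverse strand only, had 21.4% ± 7.48 in XX against 47.4% ± 5.15 in XO cells (SD, n = 7). Over both, 25 of 25 cytosines were lower in XX cells, against 53.5% of all autosomal cytosines. Autosomal clusters with an XO mean of 45% to 50% had XX quartiles of 20.6% and 35.8%, and the second cluster lay between them. The first lay below the quartiles at its XO level, 32.0% and 51.3%. The third, 59229371 to 59229535, past the inner start, had 1.97% ± 2.60 in XX against 1.32% ± 2.62 in XO cells (SD, n = 19). The libraries thus differed by over 20 points upstream of the inner start and by 0.657 points past it.

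Magel2 also joined unlike stretches, but its rise was not confined to a step between clusters. The cluster 62377231 to 62377806, which holds the end of the untranslated leader and the beginning of the coding sequence, had 3.71% ± 6.83 in XX against 9.31% ± 12.1 in XO cells (SD, n = 37). In the printed stretch from the start codon the means were 0.750% in XX against 2.17% in XO over 16 cytosines. The highest values of the same cluster, 27.3% in XX and 37.5% in XO cells, lay past that stretch. The next cluster, 62377951 to 62378132, had 22.1% ± 9.90 in XX against 49.9% ± 11.0 in XO cells (SD, n = 10), and 10 of 10 cytosines were lower in XX cells. Its XX mean lay between the quartiles of autosomal clusters with a similar XO mean, 20.6% and 35.8%. The difference there was -40.5 points forward and -14.9 points reverse, so the direction was shared and the size was not. Further into the gene, 62380127 to 62380282 had 25.2% ± 16.9 in XX against 29.0% ± 7.32 in XO cells (SD, n = 4).

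At Ndn the annotations place the start differently. GENCODE M21 begins the gene at 62346569, with no cytosine listed within 1 kb, and RefSeq begins it 1708 bp further, at 62348277. The single cluster of the gene, 62348493 to 62348679, lies within 1 kb of the RefSeq start and had 36.4% ± 10.2 in XX against 34.1% ± 12.6 in XO cells (SD, n = 11). The XX values ran from 5.88% to 41.2% and the XO values from 16.7% upwards, with overlap, and 7 cytosines were lower and 4 higher in XX cells. The XX mean was above those of the Peg3 and Snrpn promoter windows. It was below that of the single Snrpn cluster across the start, 37.0%.

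Mkrn3 and Peg12 had low cluster means near their starts, though single cytosines there were higher. Of the 4 Mkrn3 clusters, 62419797 to 62419846 had 0.231% in XX against 0.446% in XO over 16 cytosines. The upstream one, 62420180 to 62420327, had 9.48% in XX against 11.6% in XO over 11, with values up to 33.3% and 36.4%. The cluster 62419188 to 62419305 had 3.04% in XX against 5.71% in XO over 6. At 62419994 to 62420000 the means were 4.76% in XX against 2.78% in XO over 3. The long Peg12 cluster across the start, 62463887 to 62464534, had 3.62% ± 6.47 in XX against 3.96% ± 7.39 in XO cells (SD, n = 116). Its values ran up to 20.8% in XX and 29.4% in XO cells. Further inside Peg12, 62463519 to 62463703 had 31.5% ± 33.7 in XX against 27.6% ± 23.7 in XO cells (SD, n = 15). The XX value there was 92.3% at 62463701 and at 62463703. Its forward strand differed by 10.6 points and its reverse strand by -6.19 points, so the strands shared no direction. Towards the end of the gene, 62462355 to 62462440 had 4.94% ± 5.70 in XX against 0% in XO cells (SD, n = 4).

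**Figure D4:**
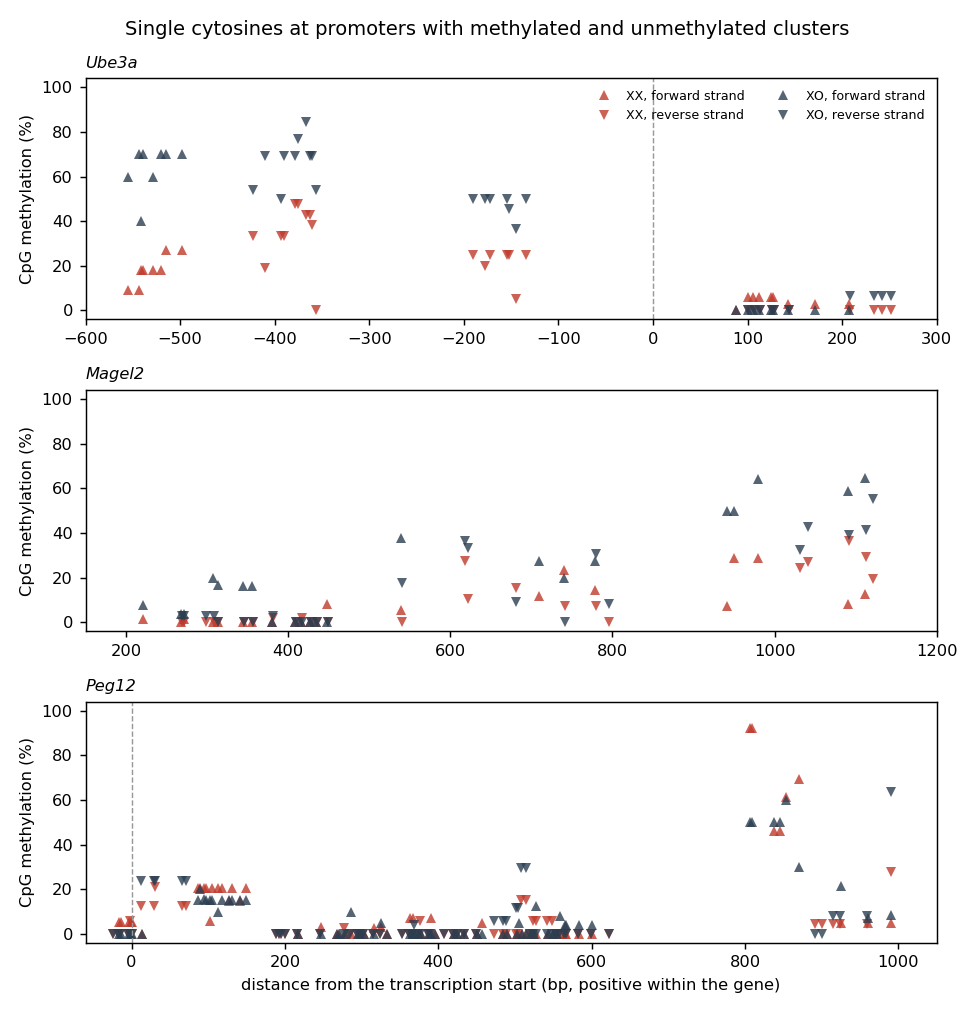
Methylation (%) of single cytosines in XX and XO cells against the distance (bp) from the start of Ube3a, Magel2 and Peg12, with triangles pointing up for the forward and down for the reverse strand. XO values lie above XX values upstream of the dashed Ube3a start and at the right end of Magel2, and both libraries lie near 0% past the Ube3a start.

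At Zim1 the start and the exons at the end of the gene differed. The start, 6696437 to 6696570, had 17.3% ± 5.79 in XX against 12.5% ± 14.5 in XO cells (SD, n = 8). Its 4 forward cytosines were lower and its 4 reverse cytosines higher in XX cells, where each reverse XO value was 0%. These cytosines lie on 8 different CpGs, so strand and position cannot be told apart. In coding and untranslated exons at the end of the gene, by contrast, 30 of 30 cytosines in 4 clusters were lower in XX cells. Of all autosomal cytosines 53.5% were lower. The cluster 6677182 to 6677260 had 8.87% ± 6.75 in XX against 43.3% ± 14.2 in XO cells (SD, n = 6). The printed one, 6677389 to 6677594, had 22.2% ± 15.5 in XX against 55.9% ± 20.3 in XO cells (SD, n = 14). The cluster 6678007 to 6678224 had 35.3% ± 9.21 in XX against 71.3% ± 19.1 in XO cells (SD, n = 7), with -40.7 points forward and -34.2 points reverse. The untranslated one, 6673275 to 6673291, had 38.1% ± 4.12 in XX against 71.1% ± 3.85 in XO cells (SD, n = 3). These 4 clusters were thus lower in XX cells by similar amounts, from -36.0 to -33.0 points. Among autosomal clusters of similar XO mean, the untranslated one lay between the quartiles of XX means and the coding ones below them. The 4 cytosines in introns differed by -8.12 points at 6679382, -2.56 at 6679569, -15.5 at 6691667 and 18.3 at 6691727.

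Along the bodies of Peg3 and Usp29 methylation varied from cluster to cluster. In the coding sequence of Peg3, 6707860 to 6707908 had 45.2% ± 17.8 in XX against 71.2% ± 12.2 in XO cells (SD, n = 5). Its neighbour, 6707606 to 6707669, had 77.8% ± 9.62 in XX against 71.4% ± 7.14 in XO cells (SD, n = 3). At Usp29, 9 of the 13 clusters with at least 3 cytosines outside the shared start were lower in XX cells. The share over all autosomal clusters was 81.8%. The widest difference with XX lower was at 6952760 to 6953001, in an intron, with 20.5% ± 21.2 in XX against 49.3% ± 23.1 in XO cells (SD, n = 11). The widest with XX higher was at 6759822 to 6759882, with 46.9% ± 14.97 in XX against 35.2% ± 6.42 in XO cells (SD, n = 3). Near an inner start of Usp29 at 6947602, 6948243 to 6948384 had 29.3% ± 13.2 in XX against 46.7% ± 3.09 in XO cells (SD, n = 8), and 8 of 8 cytosines were lower in XX cells. The XX mean lay between the quartiles of autosomal clusters with a similar XO mean, 20.6% and 35.8%.

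Over both domains 38 clusters held at least 3 cytosines, of which 27 (71.1%) were lower and 11 higher in XX cells. Of all 128023 autosomal clusters 81.8% were lower. XX was lower by at least 20 points at 11 of the 38 (28.9%), against 34.9% of all clusters, and higher by as much at 0, against 1.47%. The median difference was -8.82 points, against -12.9 points. Of the 18 clusters with 15% to 50% methylation over both libraries, 14 were lower, against 88.1% of such clusters, and 8 (44.4%) lower by at least 20 points, against 44.3%. When autosomal clusters were grouped by their XO mean, 14 of the 38 lay between the quartiles of the XX means of their group, 10 below and 14 above. This grouping uses the XO value, whose noise enters it. Of 26 clusters with at least 2 cytosines on each strand, 12 were lower in XX cells on both strands, 2 were higher on both, and 12 had opposite signs or no difference on 1 strand. In some of them, such as those of Ndn and of the Zim1 start, the strands share no CpG.

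**Figure D5:**
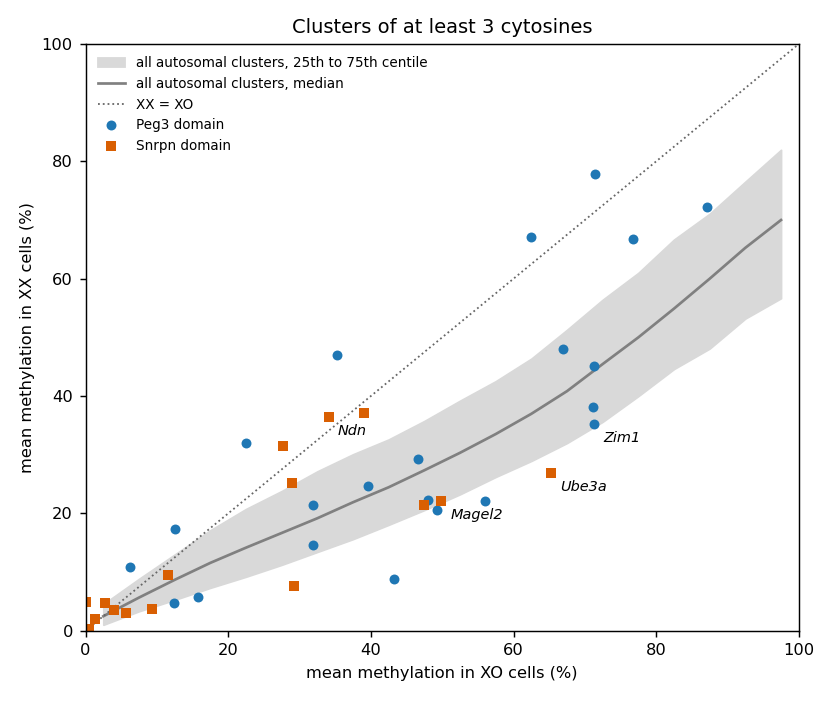
Mean methylation (%) in XX against XO cells of the 38 clusters of at least 3 cytosines, over the median (grey line) and quartiles (grey band) of all autosomal clusters at the same XO level, with a dotted line at equal values. The upstream Ube3a cluster (26.9% in XX against 65.3% in XO) lies under the band and Ndn (36.4% in XX against 34.1% in XO) above it.

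Of further genes of the domains, Zim3 and Zfp264 share a start region whose 31 cytosines had 4.87% in XX against 14.7% in XO. The window of Snhg14, the long noncoding RNA that runs antisense through Ube3a, had 36.8% against 55.1% over 33 cytosines, and that of Zim2 30.4% against 54.0% over 9. The Snurf promoter rests on the cytosines of the Snrpn promoter. Apeg3 was not found under that name in the annotation.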

How the data were processed

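RRBS was done on XX and XO Xmas mESCs, with 1 library each. The deposited table gives methylation in percent for single CpG cytosines, with both strands listed separately and no read counts. The submitters' processing notes name bcl2fastq, Bismark and mm10 (GRCm38). The coverage minimum is not given in the sources used here, so depth is unknown and no interval or floor was computed. The number of unused columns of sample values was 0.

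Windows, starts and exons were taken from GENCODE M21. Promoters were 1 kb on each side of the start with the most CpGs, gaps within clusters were at most 100 bp, and a value needed at least 3 cytosines. All 9 genes are named, with their promoter clusters and those with the lowest and highest difference; other stretches were chosen after their values were seen. Genes and lists were chosen with earlier results of these data known. With 1 library per karyotype no test was run. Alternatives were other windows, strands, weightings and filters. The code was tested on simulated data. Python 3.11.15, numpy 2.4.6 and pandas 2.3.3 were used.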

Additional observations from a re-analysis of the deposited data

How the results depend on the processing

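No paired analysis was possible because each karyotype had 1 library, which also leaves no replicate to leave out, and no coverage minimum was tried because coverage is unknown. A value was said to move when an alternative shifted it by more than its standard error over cytosines (over genes for medians). This limit treats cytosines as independent, although neighbours can share reads. Of 46 comparisons for the 4 main values, 36 stayed within that limit and 10 did not. Some of the 36 could not have moved. The 8 Peg3 cytosines form 1 cluster, so other windows, other starts and cluster weightings returned the same -17.3 points. Such repeats say nothing about stability. The Peg3 control promoter (-17.3 points) gave -36.2 on the forward and 1.71 on the reverse strand, which turned its direction. The Snrpn control promoter (-6.81 points) gave -1.78 forward and -12.3 reverse, -16.0 with each cluster counted once, -14.3 with each strand of each cluster counted once, and 5.83 for medians over cytosines, which turned its direction. The median over gene windows (-11.1 points) was -14.6 on the forward strand, -14.5 with each cluster counted once and -14.2 with each strand of each cluster counted once. The median over the promoters of Zim1, Magel2, Mkrn3, Peg12 and Ube3a (-1.03 points) stayed within its limit of 4.23 points. It ran from -4.36 with at least 10 cytosines, which leaves out Zim1, to 0.132 with CpG-dense runs in place of windows. The limit exceeds the value itself, so staying within it says little about stability. No such run gave a value for Snrpn. Counting each strand of a cluster once and using RefSeq starts were chosen after seeing the data. For single genes, 57 of 153 comparisons moved and 8 had the opposite sign. The Zim1 window (-23.8 points) was -17.7 with each cluster and -18.7 with each strand of each cluster counted once, and the Ube3a window (-19.9) reached -34.1 for medians over cytosines. The cause of these shifts was not tested.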

Other observations

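Of 10 genes beside the Snrpn domain, from Tubgcp5 to Atp10a, 9 had at least 3 promoter cytosines. Differences ran from -9.69 points at Atp10a, a phospholipid flippase gene, to 2.24 points at Cyfip1, and 5 of the 9 were lower in XX cells, against 66.6% of all autosomal protein-coding promoters. Over the whole windows XX methylation was lower at 10 of 10 genes, with a median difference of -3.25 points, against 88.5% lower and a median of -5.80 points over all autosomal protein-coding gene windows, and the widest was at the pigmentation gene Oca2 (33.6% against 52.8% over 24 cytosines).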
